A study of Mus musculus with 12 samples.

Results

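The serpins (serine peptidase inhibitors) were followed in Sertoli cell and germ cell fractions of the mouse testis, in TAp73 knockout (KO) and control mice. Members were all genes whose symbol starts with Serpin, found by matching the accession of each array probe to the RefSeq gene table. The array carried 58 such genes with 71 of its 39429 probes, and 41 of them were tested among 25027 genes in all. The other 17 were not well above background on all 3 arrays of any group, and none of these was detected on more than 4 of the 12 arrays. The 4 groups were the Sertoli and germ cell fractions of 3 TAp73 KO mice (120, 86 and 72) and of 3 control mice (99, 73 and 74), all male C57BL/6J, with 1 array per fraction and mouse. The ages were 4 months (mouse 120), 5 months (mouse 99) and 8 months (the other 4). The source names call all 3 controls wildtype, but the titles of mice 73 and 74 say het and only mouse 99 is titled WT. TAp73 is the transactivating form of p73, a member of the p53 family, and germ cell adhesion and maturation are the subject named in the title of the study.

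Most serpins trap a target protease: the protease cuts an exposed loop of the serpin, and the serpin then changes shape and holds it covalently. Clade A serpins are mainly secreted plasma proteins, clade B serpins lack a classical secretion signal and act mainly inside cells, and a few members such as Serpinh1 and Serpinf1 inhibit no protease. In the testis, plasminogen activators and their inhibitors act in the seminiferous epithelium, where Sertoli cells and germ cells are restructured as germ cells move and spermatids are released. The mouse genome carries several serpins, such as Serpina1, Serpina3, Serpinb6 and Serpinb9, as groups of neighbouring copies.

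Levels are given as log2 signal relative to the 75th percentile of the same array, so that 0 is the brightness of a fairly bright probe and a step of 1 is a doubling. They serve to compare arrays for one probe, not one gene with another. The 75th percentile itself lay between 1355 and 3929 signal units on the Sertoli arrays, with the lowest on that of control mouse 74, and between 3473 and 5350 on the germ cell arrays. Between 31 and 37 Serpin genes were well above background on a Sertoli array and between 37 and 42 on a germ cell array. Over all probes the share was also lower on the Sertoli arrays, at 64.1 to 68.3%, against 73.3 to 78.9% on the germ cell arrays. The tested Trp73 probe averaged -2.35 ± 0.44 in KO germ cells and -3.35 ± 0.83 in control germ cells (SD, n = 3 each), and all 3 Trp73 probes gave signal on every KO array. The position of these probes relative to the deleted part is not given in the sources used here, so they do not check the genotype.

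The germ cell fraction held the markers of meiotic and later germ cells. All 21 spermatocyte, 13 round spermatid and 19 elongating spermatid markers tested were lower in the Sertoli fraction of both genotypes (limma, adjusted p by Benjamini-Hochberg under 0.05). Of 15 spermatogonia markers tested, 2 were higher and 8 lower in the Sertoli fraction of KO mice, and 2 were higher and 9 lower in that of control mice. The label Sertoli is borne out less clearly. Of 25 Sertoli cell markers tested, 9 were higher and 10 lower in the Sertoli fraction of KO mice, and 12 were higher and 9 lower in that of control mice. Fshr, the receptor for follicle-stimulating hormone, was not well above background on any Sertoli array and was so on all 6 germ cell arrays. All 10 fibroblast and all 10 peritubular myoid markers tested were higher in the Sertoli fraction of both genotypes. The summed linear level of the fibroblast markers, in units of the array's 75th percentile, ranged over the Sertoli arrays between 295.2 and 431.5 in KO mice and between 322.4 and 665.5 in controls, and over the germ cell arrays between 4.83 and 6.27 in KO mice and between 3.47 and 5.01 in controls. That of the peritubular myoid markers ranged between 449.5 and 631.8 on KO and between 596.2 and 913.0 on control Sertoli arrays, against 36.9 to 43.7 on KO and 30.0 to 36.7 on control germ cell arrays. These are bulk RNA samples, in which fewer cells of a type and less RNA per cell cannot be told apart. The part of these cells in the differences between fractions was not tested.

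Sertoli and germ cell fractions differed in most serpins. In KO mice, 17 of 41 genes were higher in the Sertoli fraction, against 37.9% of all genes tested, and 15 were lower, against 37.1%. In control mice, 19 of 41 were higher, against 39.8% of all genes, and 13 were lower, against 36.5%. The shares are near those of all genes, so the number of differences does not set the serpins apart. The median difference (Sertoli minus germ) was 0.30 over the serpins and 0.09 over all genes in KO mice, and 0.46 and 0.21 in control mice. Both genotypes called 17 of the same genes higher and 13 of the same lower. Within single mice, 18 serpins were higher in the Sertoli fraction of all 6 mice and 15 were lower in all 6. No share over all genes is given for these counts of shared direction, so they do not set the serpins apart. The lower calls changed more than the higher ones in an alternative that started from the median spot signal and its local background. With this normexp correction, which also adds an offset, KO mice had 16 higher and 7 lower, and control mice 20 higher and 2 lower. Scaling to the array median in place of the 75th percentile gave 23 higher and 13 lower in KO mice and 22 higher and 13 lower in control mice.

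**Figure D1:**
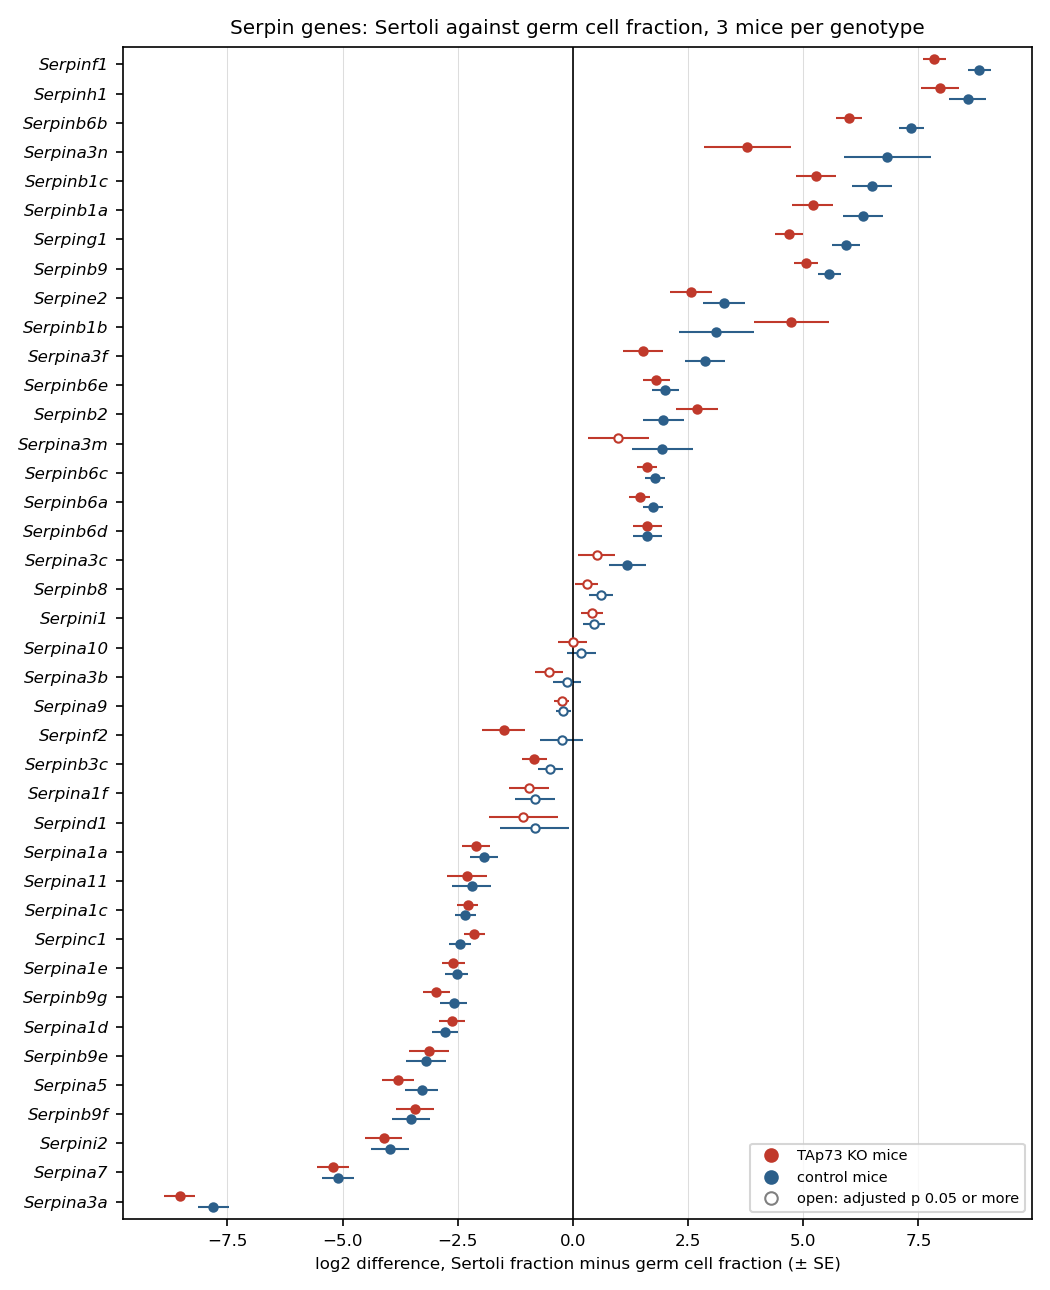
Differences between fractions for Serpin genes tested, as log2 signal in the Sertoli fraction minus the germ cell fraction, with the standard error of the fit (3 mice per genotype). Points for KO mice stand above those for control mice, filled where the adjusted p was under 0.05. Serpinf1 and Serpinh1 lie far to the right and Serpina3a farthest to the left in both genotypes, and the positions of genes that were not well above background in 1 fraction are not bounds.

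Some secreted inhibitors were higher in the Sertoli fraction than in germ cells, while others such as Serpina5 and, in KO mice, Serpinf2 were lower. Serpine2, protease nexin 1, which inhibits thrombin, urokinase and plasmin and is needed for normal seminal vesicle function in the mouse, was one of those that were higher. It measured -2.13, -3.24 and -3.29 in the Sertoli fractions of KO mice 120, 86 and 72, against -5.55, -5.95 and -4.83 in their germ cells. In control mice 99, 73 and 74 it measured -2.74, -3.46 and -2.87 in Sertoli fractions, against -7.17, -6.07 and -5.66 in germ cells. The difference was 2.56 ± 0.45 (SE) in KO mice (limma, adjusted p = 0.00034) and 3.27 ± 0.45 in control mice (adjusted p = 4.73e-05). The germ cell array of control mouse 99 was the lowest of the 12, and Serpine2 was well above background on 2 of the 3 control germ cell arrays. Serpinb2, plasminogen activator inhibitor 2, is of clade B. It was higher in the Sertoli fraction by 2.70 ± 0.45 in KO and by 1.96 ± 0.45 in control mice. It was well above background on only 1 of 3 KO and 2 of 3 control germ cell arrays, so the size of these differences is uncertain. Serpinb2 was kept for testing only through the Sertoli groups.

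Serping1, the C1 inhibitor that restrains the first complement component and plasma kallikrein, measured 4.94, 4.59 and 5.17 in KO Sertoli fractions, against -0.51, 0.53 and 0.63 in KO germ cells. In control mice it measured 4.58, 4.64 and 5.06 in Sertoli fractions, against -1.07, -1.40 and -1.06 in germ cells. The Sertoli arrays of the genotypes overlapped while the KO germ cell arrays lay above the control ones. The difference between fractions was 4.69 ± 0.30 in KO mice (limma, adjusted p = 8.09e-08) and 5.93 ± 0.30 in control mice (adjusted p = 1.06e-08).

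Serpinf1 (pigment epithelium-derived factor) and Serpinh1 (Hsp47), which both inhibit no protease, had larger differences than these. Serpinf1 restrains blood vessel growth. It measured 6.27, 6.05 and 6.48 in KO Sertoli fractions, against -2.07, -1.36 and -1.31 in KO germ cells, and 6.27, 6.17 and 6.68 in control Sertoli fractions, against -2.55, -2.61 and -2.17 in control germ cells. Its difference between fractions was 7.84 ± 0.25 in KO mice (limma, adjusted p = 4.71e-10) and 8.82 ± 0.25 in control mice (adjusted p = 2.32e-10). Serpinh1 is the chaperone that helps procollagen fold in the endoplasmic reticulum. It measured 5.81, 5.71 and 5.98 in KO Sertoli fractions, against -1.62, -2.63 and -2.15 in KO germ cells, and 5.89, 5.66 and 5.92 in control Sertoli fractions, against -3.80, -1.98 and -2.44 in control germ cells. The 6 Sertoli values of Serpinh1 lay close together, while the germ cell values spread more widely. Its difference was 7.96 ± 0.41 in KO and 8.57 ± 0.41 in control mice. Of 21 collagens and collagen-modifying enzymes tested, 20 were higher in the Sertoli fraction and 1, Col2a1, was lower, in both genotypes. Col3a1 was higher by 7.74 ± 0.35 in KO and by 8.95 ± 0.35 in control mice.

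Most of the clade B genes tested, the intracellular serpins, were called higher in the Sertoli fraction. Of 15 clade B genes, 10 were higher in both genotypes, against 37.9% of all genes in KO and 39.8% in control mice. Lower were 4 in KO mice, against 37.1% of all genes, and 3 in control mice, against 36.5%. The 10 include 5 Serpinb6 copies, which may share probe signal, so they are not separate observations. Serpinb6b, an intracellular mouse copy of the Serpinb6 group, measured 2.59, 2.64 and 2.42 in KO Sertoli fractions, against -3.98, -3.17 and -3.15 in KO germ cells. In control mice it measured 2.62, 2.58 and 1.90 in Sertoli fractions, against -4.90, -5.29 and -4.76 in germ cells. Its difference between fractions was 5.99 ± 0.28 in KO mice (limma, adjusted p = 6.07e-09) and 7.35 ± 0.28 in control mice (adjusted p = 1.28e-09). The other 4 Serpinb6 genes tested were also higher in both genotypes, by at most 1.81 in KO mice (Serpinb6e), so all 5 were higher. Serpinb6a was higher by 1.45 ± 0.22 in KO and by 1.74 ± 0.22 in control mice, and Serpinb6c by 1.60 and 1.78. Serpinb6a, which inhibits cathepsin G, measured 5.50, 5.55 and 5.48 in KO Sertoli fractions and 5.57, 6.12 and 6.15 in control ones. In germ cells it measured 3.83, 4.21 and 4.14 in KO mice and 4.53, 3.88 and 4.20 in control mice. Near-identical copies such as Serpinb6a and Serpinb6c can hybridise to each other's probes, so the split between copies is uncertain.

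The Serpinb1 genes, relatives of human SERPINB1, which protects cells against neutrophil elastase and cathepsin G, were all 3 higher in the Sertoli fraction of both genotypes. Serpinb1a measured 3.56, 3.71 and 3.21 in KO Sertoli fractions, against -2.53, -1.002 and -1.61 in KO germ cells, and 3.47, 4.22 and 3.13 in control Sertoli fractions, against -2.10, -3.43 and -2.53 in control germ cells. Its difference between fractions was 5.20 ± 0.44 in KO and 6.30 ± 0.44 in control mice. Serpinb1c measured -1.91, -1.81 and -2.29 in KO Sertoli fractions, against -8.33, -6.75 and -6.76 in KO germ cells, and -2.04, -1.84 and -2.23 in control Sertoli fractions, against -8.01, -9.30 and -8.27 in control germ cells. No control germ cell array measured Serpinb1c above background, and it was at least 31.9-fold higher in the Sertoli fraction of control mice (limma, adjusted p = 1.08e-07). Such bounds take, for the dim group, each array's detection floor (its faintest probe called well above background) or the dim probe itself, whichever is higher. An adjusted p beside a bound is that of the fitted difference and does not test the bound. Serpinb1b measured -5.05, -4.26 and -4.50 in KO Sertoli fractions, against -9.20, -9.74 and -9.10 in KO germ cells, and -4.91, -3.86 and -5.10 in control Sertoli fractions, against -9.43, -5.39 and -8.39 in control germ cells, where only mouse 73 was above background. It was at least 6.12-fold higher in KO Sertoli fractions (limma, adjusted p = 0.000257). Over the alternatives the fitted difference was as small as 4.01 for Serpinb1c in control mice and 1.97 for Serpinb1b in KO mice. These lie below the bounds, so the bounds hold for the reported processing only. Serpinb1b and Serpinb1c were kept for testing only through the Sertoli groups, so the separation of their arrays is not separate evidence.

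The protease targets of these inhibitors were split between the fractions. Of all genes tested, 37.9% were higher and 37.1% lower in the Sertoli fraction of KO mice, and 39.8% and 36.5% in that of control mice. Whether any list departs from these shares was not tested. Of 9 genes of plasminogen activation tested, 7 were higher in the Sertoli fraction of both genotypes, and 1 was lower in KO and 2 in control mice. Plaur, the urokinase receptor, was higher by 6.84 ± 0.39 in KO and by 8.05 ± 0.39 in control mice, and Lrp1, a receptor that clears complexes of proteases with serpins, by 4.75 ± 0.32 and 5.72 ± 0.32. On a list of serine proteases of testis and sperm, 19 genes were tested, of which 16 were lower in the Sertoli fraction and 1 higher in both genotypes. Those lower included Acr, the acrosomal protease acrosin, and Acrbp, which binds acrosin and is not itself a protease. Of 18 granule and lysosomal proteases and caspases tested, 11 were higher and 3 lower in the Sertoli fraction of KO mice, and 12 higher and 2 lower in that of control mice. Cathepsin K (Ctsk) was higher by 5.84 ± 0.21 in KO and by 7.29 ± 0.21 in control mice. Of 21 coagulation, complement and kallikrein genes tested, 6 were higher and 12 lower in KO mice, and 9 were higher and 11 lower in control mice. Of 36 peptidase inhibitors outside the serpins tested, 11 were higher and 17 lower in KO mice, and 13 were higher and 16 lower in control mice.

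Clade A, the secreted serpins, held most of the genes that were higher in germ cells. Of 16 clade A genes tested, 2 were higher and 8 lower in the Sertoli fraction of KO mice, and 4 were higher and 8 lower in that of control mice. The shares over all genes were 37.9% higher and 37.1% lower in KO mice, and 39.8% and 36.5% in control mice. The 8 lower genes include 4 Serpina1 copies, which may share probe signal. Serpina3a had the largest difference of these. It measured -7.63, -8.29 and -7.78 in KO Sertoli fractions, against 0.27, 1.14 and 0.48 in KO germ cells, and -7.69, -7.46 and -7.06 in control Sertoli fractions, against 1.07, 0.05 and 0.10 in control germ cells. No Sertoli array had it well above background. By the tested probe it was at least 179-fold lower in the Sertoli fraction of KO mice (limma, adjusted p = 1.86e-09) and at least 122-fold lower in that of control mice (adjusted p = 3.09e-09). Before scaling, its processed signal lay between 10.2 and 19.6 units on the 6 Sertoli arrays and between 3712 and 11814 on the 6 germ cell arrays. A second Serpina3a probe differed by only -5.05 in KO and -3.96 in control mice. Over the alternatives the gene's difference was as small as -5.92 in KO and -4.06 in control mice, so its size is uncertain. Serpina3a was kept for testing only through the germ cell groups, so the separation of its arrays is not separate evidence.

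Serpina5, protein C inhibitor, which male mice need for fertility, was measured in both fractions. It was at -1.03, -1.55 and -1.23 in KO Sertoli fractions, against 2.13, 3.08 and 2.38 in KO germ cells. In control mice it was at -1.11, -1.12 and -1.94 in Sertoli fractions, against 2.51, 1.73 and 1.43 in germ cells. The difference was -3.80 ± 0.35 in KO mice (limma, adjusted p = 1.71e-06) and -3.28 ± 0.35 in control mice (adjusted p = 5.57e-06). In control mice, Serpina5 and Serpina3a were the only 2 of the 13 lower genes that were still called with normexp background correction. In KO mice 7 of 15 were: these 2, Serpina7, Serpina11, Serpina1a, Serpina1c and Serpina1e.

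The other germ cell genes were dimmer. Serpina7, thyroxine-binding globulin, measured -9.11, -8.80 and -8.75 in KO Sertoli fractions, against -3.72, -3.28 and -4.03 in KO germ cells, and -9.42, -9.02 and -8.00 in control Sertoli fractions, against -3.71, -3.44 and -3.99 in control germ cells. It was not well above background on any Sertoli array and was at least 9.04-fold lower there in KO mice and at least 7.03-fold lower in control mice. Serpini2, of the neuroserpin clade, measured -8.98, -8.80 and -9.08 in KO Sertoli fractions, against -5.26, -4.54 and -4.74 in KO germ cells, and -9.44, -8.99 and -7.58 in control Sertoli fractions, against -4.63, -4.98 and -4.49 in control germ cells. It was at least 4.01-fold lower in KO Sertoli fractions and at least 3.56-fold lower in control ones. Serpina7 and Serpini2 were kept for testing only through the germ cell groups, so the separation of their arrays is not separate evidence. With normexp correction the Serpina7 difference in control mice was -0.37 ± 0.79 and that of Serpini2 was 0.30 ± 0.81. The mouse copies of alpha-1-antitrypsin, an inhibitor of neutrophil elastase, moved together. Serpina1a, Serpina1c, Serpina1d and Serpina1e were lower in the Sertoli fraction, with differences of -2.63 to -2.11 in KO and -2.78 to -1.93 in control mice, and Serpina1f was not called. These ranges are those of the tested probes. Second probes gave -1.36 in KO and -1.23 in control mice for Serpina1a and -1.34 and -0.85 for Serpina1e. That of Serpina1d gave -2.84 and -2.53, so the sizes depend on the probe. Serpina1d measured -6.69, -5.65 and -5.68 in KO Sertoli fractions, against -3.55, -3.02 and -3.54 in KO germ cells, and -6.82, -6.69 and -6.84 in control Sertoli fractions, against -4.27, -3.82 and -3.91 in control germ cells. Their sequences are nearly the same, so 1 transcript may light several of these probes. Serpinc1, antithrombin, differed by -2.14 ± 0.24 in KO and by -2.46 ± 0.24 in control mice, and Serpina11 by -2.30 ± 0.43 and -2.20 ± 0.43. In control mice the normexp fit called neither the Serpina1 genes nor Serpinc1 and Serpina11.

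Neighbouring copies went in opposite directions on 2 chromosomes, as the plot by genome order shows. In the Serpina3 group on chromosome 12, Serpina3a was higher in germ cells, while Serpina3n and Serpina3f were higher in the Sertoli fraction of both genotypes and Serpina3c and Serpina3m in that of control mice. Serpina3n, a secreted acute-phase serpin that inhibits granzyme B in the mouse, measured -0.08, 0.16 and 1.38 in KO Sertoli fractions, against -3.93, -3.17 and -2.79 in KO germ cells. In control mice it measured -0.21, -1.23 and 0.43 in Sertoli fractions, against -9.19, -7.67 and -4.64 in germ cells, where only mouse 74 was well above background. Its difference was 3.79 ± 0.95 in KO mice (limma, adjusted p = 0.00364) and 6.83 ± 0.95 in control mice (adjusted p = 4.74e-05).

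In the Serpinb9 group on chromosome 13, Serpinb9, the mouse inhibitor of granzyme B inside cells, was higher in the Sertoli fraction, and Serpinb9e, Serpinb9f and Serpinb9g were lower. Serpinb9 measured 0.39, 0.60 and 0.29 in KO Sertoli fractions, against -5.19, -4.14 and -4.57 in KO germ cells, and 0.33, 0.65 and 0.22 in control Sertoli fractions, against -5.01, -5.20 and -5.28 in control germ cells. Its difference was 5.06 ± 0.25 in KO mice (limma, adjusted p = 1.06e-08) and 5.57 ± 0.25 in control mice (adjusted p = 4.6e-09). Serpinb9e measured -9.11, -8.75 and -7.74 in KO Sertoli fractions, against -5.36, -5.32 and -5.58 in KO germ cells, and -9.21, -7.75 and -7.59 in control Sertoli fractions, against -5.04, -4.81 and -5.13 in control germ cells. No Sertoli array had the tested Serpinb9e probe above background, but a second, dimmer probe was detected on 2 of them, so no bound is given. That second probe was not kept for testing and was well above background on no germ cell array. It went the other way, higher in the Sertoli fraction by 1.09 in KO and 1.25 in control mice. The direction for Serpinb9e therefore depends on the probe. Serpinb9f measured -8.86, -8.63 and -8.55 in KO Sertoli fractions, against -5.27, -4.85 and -5.65 in KO germ cells, and -9.12, -8.68 and -7.31 in control Sertoli fractions, against -4.76, -4.60 and -5.21 in control germ cells. Serpinb9g measured -9.15, -8.74 and -9.07 in KO Sertoli fractions, against -5.86, -6.10 and -6.10 in KO germ cells, and -9.01, -7.89 and -7.77 in control Sertoli fractions, against -5.71, -5.64 and -5.56 in control germ cells. All 3 genes were kept for testing only because the germ cell groups had them well above background. That every germ cell array lay above every Sertoli array is therefore not separate evidence. Serpinb9f was at least 3.03-fold lower in KO and at least 3.19-fold lower in control Sertoli fractions, and Serpinb9g at least 1.78-fold and 1.86-fold. The processed signal of these 3 genes lay between 5.49 and 13.7 units on the Sertoli arrays and between 55.3 and 215 on the germ cell arrays. With normexp correction, which adds a fixed offset to every signal, none of the 3 was called and their differences in control mice turned to 0.63 for Serpinb9e, 0.49 for Serpinb9f and 0.98 for Serpinb9g.

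**Figure D2:**
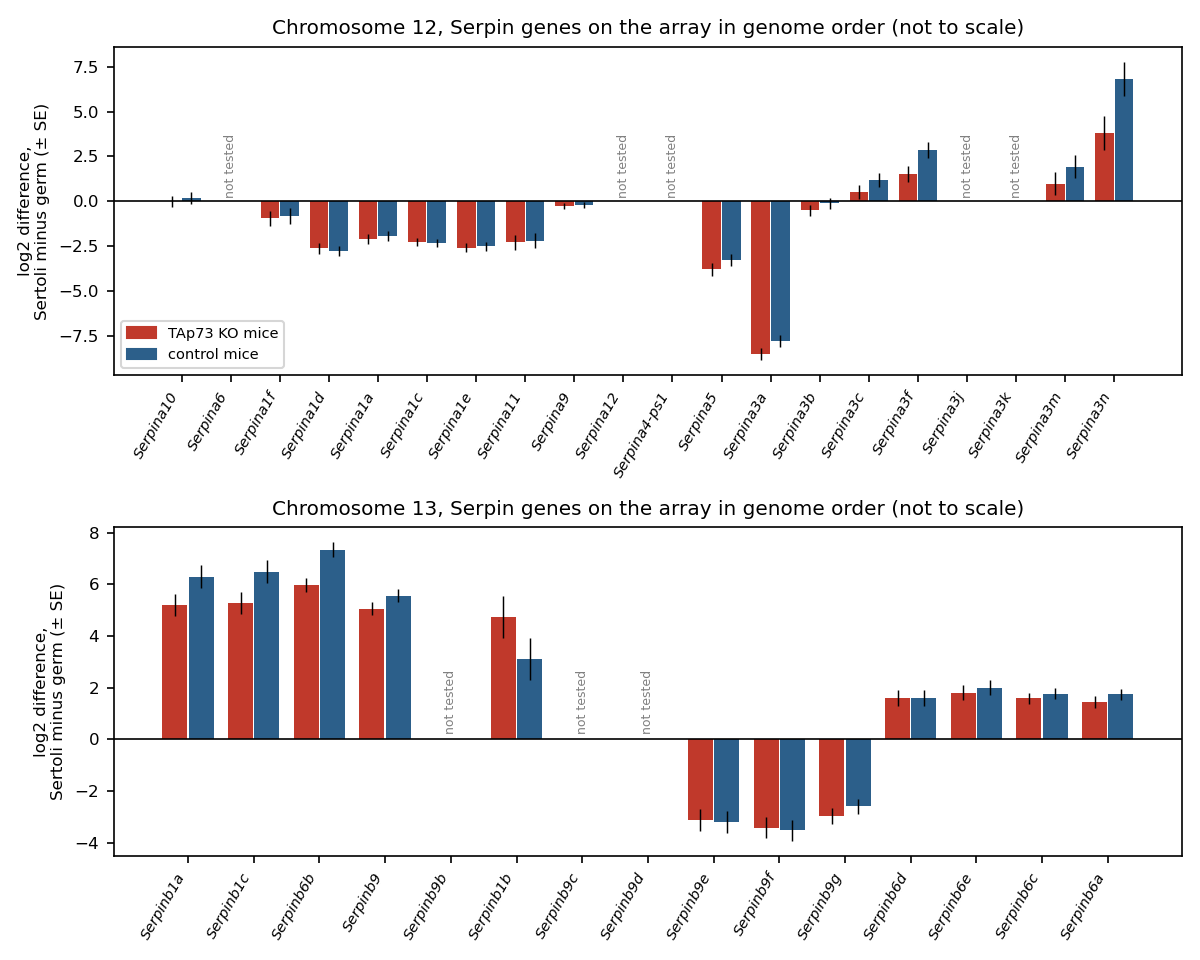
Differences between fractions (log2, Sertoli minus germ, with standard error, 3 mice per genotype) for the Serpin genes of chromosomes 12 and 13 in genome order, KO bars left of control bars. On chromosome 12 the Serpina1 copies, Serpina5 and Serpina3a lie below 0 and Serpina3c, Serpina3f, Serpina3m and Serpina3n above it, and on chromosome 13 Serpinb9e, Serpinb9f and Serpinb9g lie below 0 between Serpinb1 and Serpinb6 copies above it.

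The promoters of these oppositely placed copies, and that of Serpine2, are printed to show how far the copies have diverged and where common promoter motifs lie. They run over 250 bases before and 50 after the annotated start, 5′ to 3′ on the gene's strand, and come from RefSeq (GRCm38.p6). They lie at chr12:104406458-104406757 on the plus strand (Serpina3n), chr12:104112474-104112773 on the plus strand (Serpina3a), chr13:33004291-33004590 on the plus strand (Serpinb9), chr13:33249358-33249657 on the plus strand (Serpinb9e) and chr1:79858616-79858915 on the minus strand (Serpine2). Capitals mark matches on either strand to 5 motifs: TATAAA for the box of that name, GGGCGG for GC boxes, CCAAT, which names its own box, TGANTCA for AP-1 and TGACGTCA for the cAMP response element. Overlapping matches merge into one run of capitals.
Serpina3n: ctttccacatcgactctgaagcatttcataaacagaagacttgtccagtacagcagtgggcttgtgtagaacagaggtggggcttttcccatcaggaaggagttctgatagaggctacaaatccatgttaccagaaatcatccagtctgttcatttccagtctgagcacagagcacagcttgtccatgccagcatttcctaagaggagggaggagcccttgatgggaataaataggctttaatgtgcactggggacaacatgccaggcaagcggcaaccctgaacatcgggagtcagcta
Serpina3a: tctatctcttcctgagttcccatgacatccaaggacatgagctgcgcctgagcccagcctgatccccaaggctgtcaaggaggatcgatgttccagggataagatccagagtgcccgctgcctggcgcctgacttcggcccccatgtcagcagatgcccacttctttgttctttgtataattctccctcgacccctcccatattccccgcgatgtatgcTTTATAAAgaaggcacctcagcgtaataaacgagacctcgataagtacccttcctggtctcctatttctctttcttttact
Serpinb9: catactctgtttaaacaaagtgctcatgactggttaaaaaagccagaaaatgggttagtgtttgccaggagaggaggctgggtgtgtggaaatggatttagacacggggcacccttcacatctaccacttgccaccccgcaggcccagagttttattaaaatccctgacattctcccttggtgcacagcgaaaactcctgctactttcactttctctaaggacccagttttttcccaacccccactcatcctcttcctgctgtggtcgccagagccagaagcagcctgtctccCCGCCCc
Serpinb9e: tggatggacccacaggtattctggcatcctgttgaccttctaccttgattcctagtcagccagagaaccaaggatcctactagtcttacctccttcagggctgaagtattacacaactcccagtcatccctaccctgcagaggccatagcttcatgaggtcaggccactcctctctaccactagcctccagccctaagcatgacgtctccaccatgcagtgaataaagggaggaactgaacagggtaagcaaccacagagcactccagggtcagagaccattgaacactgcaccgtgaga
Serpine2: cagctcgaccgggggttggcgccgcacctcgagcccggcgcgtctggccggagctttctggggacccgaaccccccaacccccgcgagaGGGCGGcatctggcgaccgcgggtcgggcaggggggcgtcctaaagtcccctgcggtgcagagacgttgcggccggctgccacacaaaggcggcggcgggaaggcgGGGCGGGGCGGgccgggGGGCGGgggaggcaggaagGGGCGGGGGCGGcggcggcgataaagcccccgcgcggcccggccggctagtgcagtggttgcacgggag

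In Serpina3a the capitals are 2 overlapping TATAAA matches, 1 on each strand, and in Serpinb9 they are 1 GGGCGG match on the opposite strand. Serpine2 holds 6 GGGCGG matches in a window of 77.7% G and C, and Serpina3n and Serpinb9e hold none of the 5 motifs. In a global alignment, the promoter of Serpina3a had 47% identity with that of Serpina3n, and Serpinb9 had 46.5% with Serpinb9e. The promoters of Serpinb9e, Serpinb9f and Serpinb9g were 89.1 to 93.4% identical to each other, and that of Serpina3n was 89.9% identical to that of Serpina3c. A promoter was listed for 35 of the 41 genes tested, and Serpina10, Serpina3m, Serpina9, Serpinb1a and Serping1 were among those with none in the table. Among these 35, GGGCGG was found in 6 of 14 promoters of genes higher in the Sertoli fraction of both genotypes and in 0 of 13 of genes lower in both, and in 35.7% of all 32851 promoters. CCAAT was found in 3 of those 14 and 8 of those 13, against 37.4% of all promoters, and 4 of the 8 are Serpina1 copies that share sequence. TATAAA was found in 3 of 14 and 3 of 13, against 13.6% of all. TGANTCA was found in 1 of 14 and 3 of 13, against 7.81%, and TGACGTCA in none of the 35, against 1.79%. A match is a description of these letters and not a bound site.

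A few serpins passed the test between fractions in neither genotype. Serpinb8, whose human counterpart inhibits furin, Serpini1 (neuroserpin), Serpina10, Serpina9, Serpina3b, Serpina1f and Serpind1 (heparin cofactor II) were these 7. Their differences lay between -1.08 for Serpind1 and 0.41 for Serpini1 in KO mice and between -0.83 for Serpind1 and 0.60 for Serpinb8 in control mice. A second, dimmer Serpini1 probe, well above background on all 12 arrays, was higher in the Sertoli fraction by 2.37 in KO and 2.05 in control mice. The result for Serpini1 therefore depends on the probe. Serpind1 was well above background on 0 of 3 KO and 1 of 3 control Sertoli arrays, so its differences are not measured sizes. Serpinf2, the main inhibitor of plasmin, was lower in the Sertoli fraction of KO mice, with a difference of -1.499 ± 0.46 (limma, adjusted p = 0.0123), and differed by -0.24 ± 0.46 in control mice. Serpinb3c was likewise called in KO mice, at -0.84 ± 0.27 (adjusted p = 0.0152), and was at -0.49 ± 0.27 in control mice. Serpina3c and Serpina3m were called higher in the Sertoli fraction of control mice, at 1.18 and 1.94, and were not called in KO mice. The interaction term, which tests whether the fraction difference differs between genotypes, passed for none of these 4 (limma, smallest adjusted p = 0.999).

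In germ cells, no serpin passed the threshold between KO and control mice. Of 41 genes, 0 had an adjusted p under 0.05 (limma, Benjamini-Hochberg), against 0.216% of all genes called higher and 0.00400% called lower. At an unadjusted p under 0.05 there were 9, which is 22% of the serpins against 7.34% of all genes, and all 9 were higher in KO germ cells. Counted without a test, 6 serpins had every KO germ cell array above every control one, against 6.55% of all genes, and 4 had every KO array below, against 9.11%. The median difference was 0.23 over the serpins and -0.04 over all genes, and 25 of 41 were above 0, against 45.5% of all genes. Over the 18 alternative settings the number called ran between 0 and 2.

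Serpinb6b came closest. It measured -3.98, -3.17 and -3.15 in germ cells of KO mice 120, 86 and 72, against -4.90, -5.29 and -4.76 in those of control mice 99, 73 and 74. The groups did not overlap, and KO was higher within each of the 3 slides, each of which held 1 KO and 1 control mouse. The difference was 1.54 ± 0.28 (limma, adjusted p = 0.0635). It passed when the test was limited to probes well above background on all 12 arrays (adjusted p = 0.038) and without mouse 120 (adjusted p = 0.0357), and over the alternatives its adjusted p ran between 0.0357 and 0.712.

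Serping1, the C1 inhibitor, measured -0.51, 0.53 and 0.63 in KO germ cells, against -1.07, -1.40 and -1.06 in control germ cells. The groups did not overlap, with mouse 120 the lowest of the KO mice. The difference was 1.39 ± 0.30 (limma, adjusted p = 0.122), and within slides it was 0.55, 1.92 and 1.69. Its second probe differed by 1.77. The second probe passed when every probe was tested on its own (adjusted p = 0.0339), the mean of both probes passed as well, and the tested probe passed without mouse 120 (adjusted p = 0.0297), and the gene's adjusted p over the alternatives ran between 0.0297 and 0.739. C1ra and C1s1, the proteases of the first complement component that this serpin inhibits, differed by 1.60 ± 0.35 and 1.40 ± 0.28 and did not pass either (limma, adjusted p = 0.124 and 0.0938).

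Serpina3n had the largest difference. It measured -3.93, -3.17 and -2.79 in KO germ cells, against -9.19, -7.67 and -4.64 in control germ cells. All 3 KO arrays were well above background, but of the controls only that of mouse 74 was, and the controls spread over more than 4 units. The difference was 3.87 ± 0.95 (limma, adjusted p = 0.183). Leaving out 1 mouse at a time gave differences between 2.86 (without mouse 99) and 5.13 (without mouse 74). The fit without mouse 74 passed (adjusted p = 0.0268), but it leaves 2 control arrays that were both not well above background, so its size is not a measured one. Over the alternatives the adjusted p ran between 0.0268 and 0.84. All 6 Serpina3 genes tested had differences above 0, between 0.23 for Serpina3a and 3.87 for Serpina3n, and neighbours of this group may share probe signal.

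Serpina3f measured -5.04, -3.78 and -4.21 in KO germ cells, against -6.84, -5.98 and -5.07 in control germ cells, a difference of 1.62 ± 0.43 (limma, adjusted p = 0.237). Serpinf1 measured -2.07, -1.36 and -1.31 in KO germ cells, against -2.55, -2.61 and -2.17 in control germ cells, a difference of 0.86 ± 0.25 (adjusted p = 0.281). Serpinb1c was at -8.33, -6.75 and -6.76 in KO germ cells, against -8.01, -9.30 and -8.27 in control germ cells, where no array was well above background (adjusted p = 0.434). Only the Serpinb1c groups overlapped among these 3. The remaining genes at an unadjusted p under 0.05 were Serpina3c, Serpinf2 and Serpina1d, with differences of 1.09, 1.07 and 0.63.

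**Figure D3:**
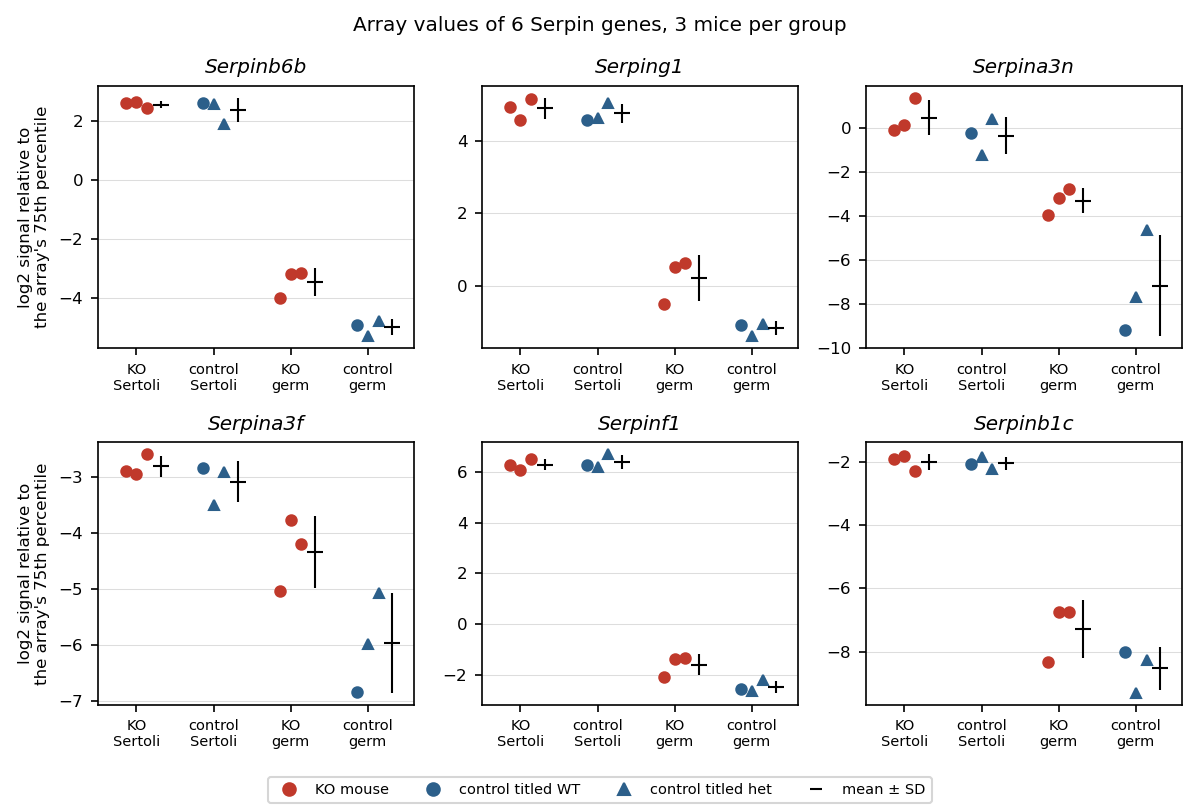
Log2 signal relative to the array's 75th percentile for the 6 Serpin genes with the smallest p in germ cells, on each of the 12 arrays, with the mean and SD (n = 3) beside the points and KO left of control in each fraction (triangles are controls titled het). The 3 KO germ cell arrays lie above all 3 control ones for Serpinb6b, Serping1, Serpina3n, Serpina3f and Serpinf1, and the Sertoli arrays of both genotypes overlap.

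Other serpins of interest in the testis did not pass in germ cells either. Serpina5 measured 2.13, 3.08 and 2.38 in KO germ cells, against 2.51, 1.73 and 1.43 in control germ cells, a difference of 0.64 ± 0.35. Serpine2 differed by 0.85 ± 0.45, Serpinh1 by 0.61 ± 0.41 and Serpinb6a by -0.14 ± 0.22. None of these 4 passed (limma, smallest adjusted p = 0.806). With the 8-month mice alone Serpinh1 was at -0.18 and Serpinb6a at 0.14. The serpins with KO arrays all below control arrays were Serpind1, Serpinb9e, Serpinb9g and Serpina9, with differences between -0.82 and -0.35. Of these, Serpind1 was well above background on only 1 of 3 KO germ cell arrays. Serpinb1b had the most negative difference, -1.61 ± 0.81, but was well above background on 0 of 3 KO and 1 of 3 control arrays.

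Markers of other cells stood higher in KO germ cells beside these serpins. Of the somatic markers tested, 24 of 25 for Sertoli cells, 8 of 8 for Leydig cells, 13 of 16 for macrophages and leukocytes, 12 of 12 for endothelium, 9 of 10 for peritubular myoid cells and 7 of 10 for fibroblasts had differences above 0 between KO and control germ cells. Of these, 1 passed: Pdgfra, on the fibroblast list, rose by 1.25 ± 0.19 (limma, adjusted p = 0.0359). The summed level of the Leydig cell markers ranged between 26.7 and 40.2 on the KO germ cell arrays and between 13.3 and 26.2 on the control ones, and that of the Sertoli cell markers between 160.4 and 236.7 and between 137.5 and 175.7. For macrophages and leukocytes the sums lay between 41.5 and 42.7 on KO and between 45.7 and 55.7 on control germ cell arrays. Most of that sum came from Aif1, which differed by -0.39 ± 0.26 between KO and control germ cells and by -9.29 in KO and -9.42 in control mice between fractions (Sertoli minus germ). Tyrobp, C1qc and C1qa, also on that list, had differences of 2.04 ± 0.48, 1.89 ± 0.52 and 1.61 ± 0.60 in germ cells, none of which passed (limma, smallest adjusted p = 0.159). Other leukocyte and macrophage markers of the list did not rise with them. Ptprc differed by -0.31 ± 0.42, Itgam by -0.12 ± 0.29 and Adgre1 by 0.23 ± 0.38. Markers of germ cells lay mostly lower, with 2 of 19 elongating spermatid, 1 of 13 round spermatid, 3 of 21 spermatocyte and 6 of 15 spermatogonia markers above 0 and none called (limma). The median difference of the spermatogonia markers was -0.06. The elongating spermatid sums lay between 740.0 and 878.6 on KO and between 839.7 and 1003 on control germ cell arrays. For endothelium the sums lay between 7.88 and 8.53 and between 6.86 and 7.64, and for fibroblasts and peritubular myoid cells they are given above. Among defining markers, the myeloid lysozyme Lyz2 was well above background on 3 of 3 KO and 1 of 3 control germ cell arrays, and Inhba on 3 of 3 and 0 of 3. Ptprc, Itgam and Adgre1 were well above background on 3 of 3 germ cell arrays of each genotype. Of the 6 serpins with KO germ cell arrays all above control ones, Serpinb6b, Serping1, Serpina3n, Serpina3f and Serpinf1 were higher in the Sertoli fraction than in germ cells, and Serpina1d was lower there. The part of these cells in the germ cell differences was not tested.

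Other protease inhibitors and proteases in germ cells gave a few calls. Of 36 peptidase inhibitors outside the serpins, 2 rose in KO germ cells: Timp1, the tissue inhibitor of metalloproteinases, by 4.05 ± 0.44 (limma, adjusted p = 0.00721), and Wfdc18 by 3.06 ± 0.51 (adjusted p = 0.049). Of 18 granule and lysosomal proteases and caspases, 1 rose, Ctsk, by 1.31 ± 0.21 (adjusted p = 0.0423). Of 6 plasma proteins of the liver, 1 rose, Ahsg, by 2.38 ± 0.38 (adjusted p = 0.0419). None of 9 plasminogen activation genes, 21 coagulation, complement and kallikrein genes, 19 genes of the testis serine protease list and 21 collagen genes passed in either direction. Of the plasminogen activation genes 8 of 9 had differences above 0.

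In the Sertoli fraction, no serpin passed between KO and control mice. With limma and Benjamini-Hochberg adjustment 0 of 41 were called, against 0% of all genes, and 0 were called in each of the 18 alternatives. At an unadjusted p under 0.05 there were 3, or 7.32%, against 3.02% of all genes. Serpins with every KO array above every control array numbered 1, against 1.85% of all genes, and those with every KO array below numbered 3, against 4.83%. The median difference was -0.07 over the serpins and -0.10 over all genes.

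The members with the smallest p in the Sertoli fraction were Serpina1d, Serpinb9g, Serpina9, Serpinb6a, Serpina1c and Serpinb6c. Serpina1d measured -6.69, -5.65 and -5.68 in KO Sertoli fractions, against -6.82, -6.69 and -6.84 in control ones, a difference of 0.78 ± 0.28. It was well above background on 3 of 3 KO and 1 of 3 control arrays, and with normexp correction the difference was -1.31. Serpinb6a measured 5.50, 5.55 and 5.48 in KO Sertoli fractions, against 5.57, 6.12 and 6.15 in control ones, a difference of -0.43 ± 0.22. Its groups did not overlap, but control mouse 99 lay just above KO mouse 86. Serpina9 measured -4.43, -4.32 and -4.54 in KO Sertoli fractions, against -4.20, -4.09 and -3.88 in control ones, a difference of -0.38 ± 0.16. Serpinb6c measured 5.25, 5.20 and 5.15 in KO Sertoli fractions, against 5.27, 5.66 and 5.65 in control ones, a difference of -0.32 ± 0.21. These also did not overlap, with mouse 99 again next to the KO mice in Serpinb6c. Serpina1c measured -4.30, -3.75 and -3.72 in KO Sertoli fractions, against -4.54, -4.42 and -3.92 in control ones. Serpina1c differed by 0.37 ± 0.23. Serpinb9g was not well above background on any of the 6 Sertoli arrays, so no difference is given for it. The adjusted p of all 6 was 1. The differences of Serpine2, Serpinf1, Serping1, Serpinh1, Serpina5 and Serpina3n were 0.14, -0.11, 0.14, 0.01, 0.12 and 0.83. The SE of these differences lay between 0.25 and 0.95, so changes of this order would not be seen.

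The knockout differences of the fractions were compared with an interaction term (Sertoli minus germ). Of 41 serpins 0 passed (limma, Benjamini-Hochberg), against 0.00799% of all genes, and 4 had an unadjusted p under 0.05, against 4.58% of all genes. These were Serpinb6b at -1.36 ± 0.39, Serping1 at -1.25 ± 0.43, Serpinf1 at -0.97 ± 0.35 and Serpina3n at -3.04 ± 1.34, all with a smaller difference in the Sertoli fraction than in germ cells. The smallest adjusted p was 0.734, for Serpinb6b, and no alternative called any. The median over the serpins was -0.29, with 33 of 41 below 0, against -0.09 over all genes. The germ cell comparison and the interaction share the same germ cell arrays, so they are not separate evidence.

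**Figure D4:**
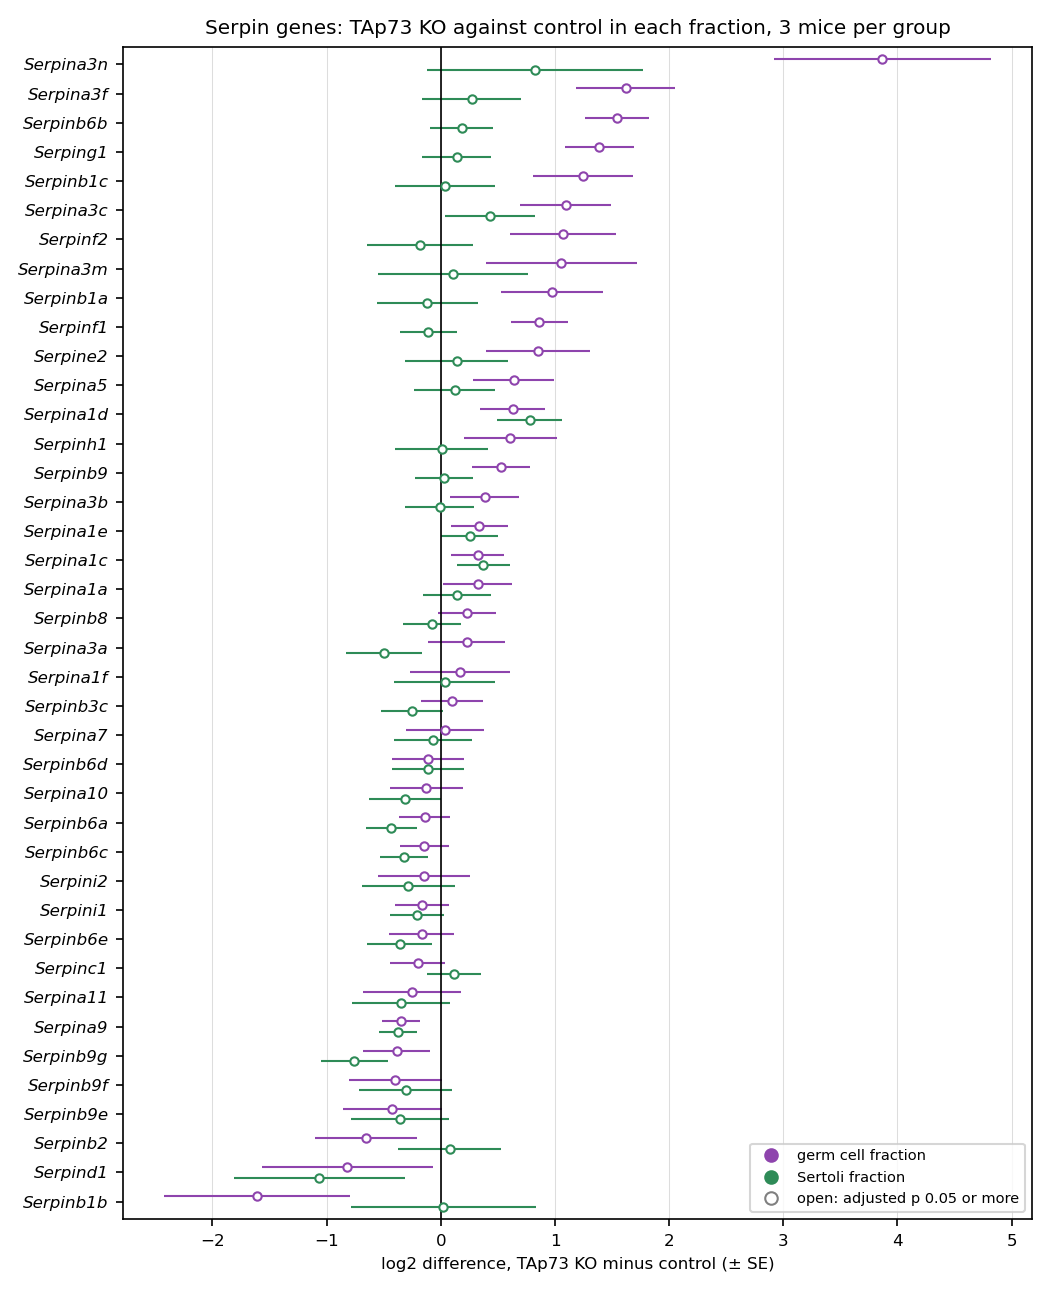
Differences between KO and control mice for Serpin genes tested (log2, KO minus control, with standard error, 3 mice per group), germ cell points above Sertoli points, all open because none had an adjusted p under 0.05. Serpina3n lies farthest to the right in germ cells at 3.87, and the Sertoli differences lie between -1.06 for Serpind1 and 0.83 for Serpina3n. Serpind1 was well above background on 0 of 3 KO and 1 of 3 control Sertoli arrays, so its position is not a measured size.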

How the data were processed

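RNA of Sertoli and germ cell fractions from 3 TAp73 KO and 3 control mice was measured on 12 single-colour Agilent arrays. The deposited intensity values used were Feature Extraction's processed signals (version 10.7.3.1, grid build mm9, per the file headers), with background subtracted and no normalisation between arrays. The median spot and local background intensity, also deposited, served for an alternative only. The authors' deposited table of log2 values has column medians of 8.29 and the probe order of the processed signal (Spearman's rho 1, rounded), so its direction is known and its exact scaling is not. The submitters' processing notes name limma.

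Control spots (1377 of 44397) and outlier spots were left out and spots of a probe averaged. The array's 75th percentile was subtracted from log2 signal. Of 39429 probes, 26055 were named through the RefSeq table (GRCm38.p6), used for names and gene order only. Kept were 30530 probes that at least 1 group had well above background in all its 3 mice, and each gene was represented by its brightest kept probe. All tests are two-sided, from limma 3.58.1 (R 4.3.3) fitted to 4 group means over the 12 arrays, adjusted by Benjamini-Hochberg over 25027 genes, and were tested on simulated data. Where nothing is said, n is 3 mice a group. The number of arrays limits the precision.

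Per the labels' mouse numbers each animal gave 1 array per fraction, which pairs the arrays. The r between a mouse's Sertoli and germ cell deviations from their group means was 0.256, 0.283, 0.203, -0.162, -0.116 and 0.463 (over genes, mice 120, 86, 72, 99, 73 and 74). Each of 3 slides held both fractions of 1 KO and 1 control mouse. The members, gene lists and tests were chosen with earlier results of these data known. Named are the 6 members with the smallest p per knockout comparison, the 8 largest differences each way between fractions, serpins with a known place in testis, plasminogen activation, collagen folding or complement, and from each other list at most 4 called genes or the 2 with the smallest p; Acr, Fshr, Lyz2, Col3a1 and the promoters shown were chosen after their values were seen. One member is not reported here by name and enters only the counts and medians.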

Additional observations from a re-analysis of the deposited data

How the results depend on the processing

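Of 18 alternatives, most left the counts within 1.5 times those reported, and none called a serpin between KO and control Sertoli fractions or in the comparison of the knockout effects. Limiting the test to probes well above background on all 12 arrays left 25 serpins, of which 1 was called in germ cells (KO against control), 18 between fractions in KO mice and 19 in control mice. The mean over probes and the test of every probe each called 1 in germ cells, and leaving out mice gave 0 to 2: 2 without mouse 120 (Serpinb6b and Serping1) and 1 without mouse 74 (Serpina3n, against control arrays at background). With the mouse as replicate block (consensus correlation 0.126) the counts were 0 and 0 for the knockout comparisons, 32 between fractions in KO and 33 in control mice, and 0 for the difference of the knockout effects, so the pairing moved 1 call. Scaling moved the median of all genes between fractions in control mice, which was 0.21 as reported, 0.44 after quantile normalisation, 0.88 with the array median and 0.85 with normexp. With normexp correction these differences turned sign between fractions in control mice: Serpini2 0.30, Serpinb9f 0.49, Serpinb9e 0.63, Serpina1d 0.14 and Serpinb9g 0.98. In the KO Sertoli comparison normexp gave Serpina1d -1.31, Serpina1c -0.68, Serpina5 -0.061, Serpine2 -0.58 and Serpinf1 0.13. Quantile normalisation and the authors' deposited table each gave Serpinb6a 0.042 in germ cells and Serpinf1 0.18 in Sertoli fractions, where the mean over probes gave Serpinf1 0.14. The 8-month mice alone gave Serpinh1 -0.18 and Serpinb6a 0.14 in germ cells and Serpine2 -0.10 in Sertoli fractions. Without the controls titled het, Sertoli fractions gave Serpinb9g 0.026 (below background on all Sertoli arrays), Serpina5 -0.16, Serpine2 -0.14 and Serpinh1 -0.061. Leaving out 1 mouse, the ranges that crossed 0 were -0.30 to 0.022 for Serpinb6a in germ cells, and in Sertoli fractions -0.16 to 0.26 for Serpina5, -0.24 to 0.34 for Serpine2, -0.22 to 0.045 for Serpinf1 and -0.075 to 0.068 for Serpinh1. The cause was not tested. The planned use of the scanner file's own gene names was not run, because the files used here hold no such column. Signals near background limit what can be said of the dim germ cell serpins.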
